A study of Mus musculus with 9 samples.

Results

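The proteasome is the cell's main machine for breaking down proteins that carry a chain of ubiquitin. A barrel-shaped core of stacked alpha and beta rings holds the cutting sites inside, and a cap on the barrel's end binds the ubiquitin chain, removes it, unfolds the protein with a ring of ATPases and feeds it into the core. Cells make the subunits in fixed proportions, and the transcription factor Nfe2l1 is known to raise their genes together when proteasome activity runs short.

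The mRNAs of these subunits were followed in adipocytes grown from 3T3-L1, a mouse line of preadipocytes that can be turned into fat cells in the dish. The cultures were given phenformin, conjugated linoleic acid (CLA) or linoleic acid (LA), with LA as the control, and each group held 3 Affymetrix arrays described as biological replicates. Phenformin, a biguanide, blocks the mitochondrial respiratory chain and switches on AMP-activated protein kinase. CLA and LA are isomers: the double bonds lie next to each other, conjugated, in CLA, while in LA a methylene group stands between them. No group carried an engineered allele according to the labels, and doses, exposure times, the CLA isomer and any fatty acid given along with phenformin are not stated in them, so the treatments are not known to be matched. A single cell line was used, and what separates one replicate from another beyond that description is not stated.

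Members were all genes whose array annotation symbol is Psm, a letter from a to g and digits, as the only symbol of a probe set, without the immunoproteasome genes Psmb8 and Psmb9. This gave 45 of the 18193 genes measured. They comprise 8 alpha ring and 7 beta ring genes (15 core genes), 2 replacement beta genes, 6 ATPases and 11 non-ATPase subunits of the cap (17 cap genes), 3 cap assembly chaperones, 3 activators, the regulator PI31 (Psmf1) and 4 core assembly chaperones. The last 11 are called regulators and chaperones here. Psme2, the partner of Psme1, is not analysed here because its probe set also matches another gene. Values are deposited log2 expression values of the brightest probe set of each gene, in which 1 unit is a doubling. Levels of different genes are not compared with each other, because probe sets differ in brightness. All 45 members passed into the tests, since no filter on low values was used. Psma8, known from testis, was not above background in LA arrays. It lay close to background in the other groups, with means of 3.75 in phenformin and 3.82 in CLA. Psmb11, known from thymus, lay close to background with group means of 3.74 in phenformin, 4 in CLA and 3.69 in LA. The other 43 members had mean levels from 7.84 to 12.56, and 37 members lay at 9 or more.

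One array stood apart before any comparison was made. The 99th percentile of LA replicate 3 was 11.63, against 12.20 to 12.48 on the other arrays. This array had the lowest value of the 3 LA arrays for 42 of 45 members and the lowest of all 9 arrays for 38. Relative to the mean of the other LA arrays it differed by a median of -0.68 over the members and -0.43 over the 3330 genes with a mean level of 9 or more, while the median over all genes was -0.05. For beta-actin, the 3' probe set minus the 5' one, a measure of RNA quality, was 0.56 ± 0.09 in phenformin, 0.53 ± 0.10 in CLA and 1.28 ± 0.39 in LA (SD, n = 3 arrays each). It was 1.71, 1.13 and 0.98 on LA replicates 1, 2 and 3. LA replicate 3 thus had the smallest value in LA, and leaving it out does not remove this difference between groups. The low array and the beta-actin difference both move with the comparisons against LA, and their part in the results was not tested. Each main count is therefore given with and without LA replicate 3. The comparison of phenformin with CLA uses neither LA level.

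Adipocyte identity was checked with marker genes. Of 9 adipocyte markers, 7 were measured, all above background, and their summed level on the log2 scale was 15.73 to 15.86 in phenformin arrays, 15.64 to 15.80 in CLA arrays and 15.15 to 16.07 in LA arrays. Most of that sum comes from the brightest probe sets, those of Fabp4 and Adipoq, and single markers differed. Pparg, the main transcription factor of fat cells, fell in CLA relative to LA (log2 fold change -1.25 ± 0.19, adjusted p = 0.00122, where ± gives the SE of a fold change here and below), with -0.58 ± 0.19 (adjusted p = 0.0619) in phenformin, which did not pass. Slc2a4, the insulin-responsive glucose transporter, rose in phenformin over LA (1.06 ± 0.19, adjusted p = 0.00362) and lay higher in phenformin than in CLA (1.66 ± 0.19, adjusted p = 0.0011). The other 5 were called in no comparison. Of 7 preadipocyte markers, 6 were measured. Their sum on the log2 scale was 14.68 to 14.90 in phenformin arrays, 14.71 to 14.96 in CLA arrays and 13.44 to 13.69 in LA arrays, so both treated groups lay above LA. The largest part of that sum comes from Col3a1. Dlk1, Pdgfra, Col1a1 and Col3a1 rose in both treated groups relative to LA, and Thy1 rose in CLA and was lower in phenformin than in CLA. Fn1 was not called in any comparison, with changes over LA of 0.12 in phenformin and 0.11 in CLA. The macrophage markers Ptprc and Itgam and the endothelial markers Tek and Vwf were not above background in any group. The 7 macrophage markers summed to 8.50 to 8.68 in phenformin arrays, 9.25 to 9.71 in CLA arrays and 8.87 to 9.14 in LA arrays, and the 5 endothelial markers to 6.46 to 6.72, 6.47 to 6.85 and 6.58 to 6.68 in the same group order. The differences in the macrophage sum were mainly those of 1 gene, Cd14, which was called in all 3 comparisons, with -0.73 ± 0.20 (adjusted p = 0.0337) for phenformin over LA, 0.72 ± 0.20 (adjusted p = 0.0359) for CLA over LA and -1.44 ± 0.20 (adjusted p = 0.00347) for phenformin over CLA. Adgre1 was called lower in phenformin over LA (-0.40 ± 0.12, adjusted p = 0.0498) at a level not above background in phenformin, and the other 5 macrophage markers and all endothelial markers were not called. The part of cell composition in the results was not tested, and in whole cultures fewer cells of a type and less RNA per cell cannot be told apart.

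**Figure D1:**
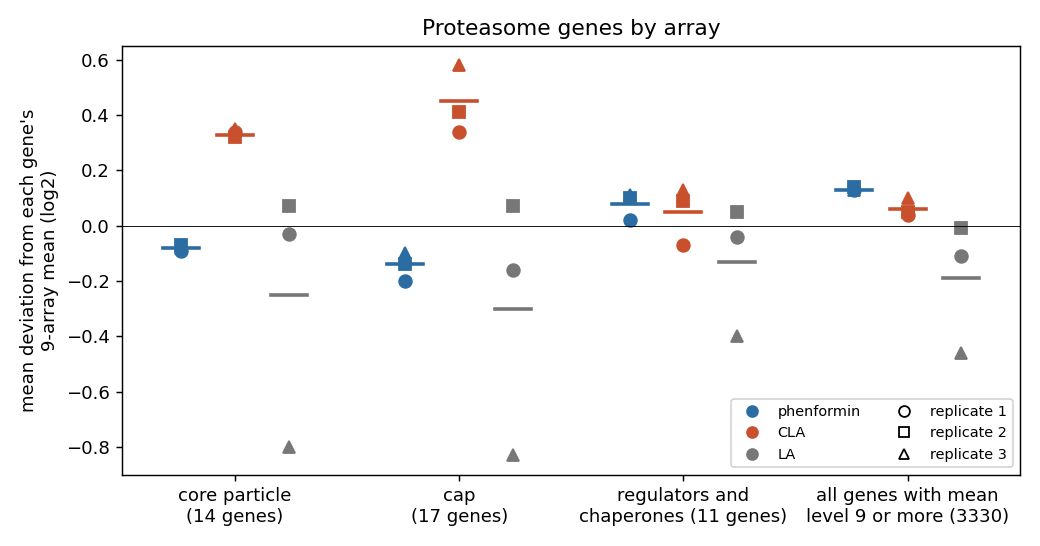
Mean deviation of each gene group from its mean over all arrays (log2 units) on each of the 9 arrays, with phenformin, CLA and LA from left to right; each marker is 1 array and the bars are group means. The 3 CLA arrays lie at 0.32 to 0.35 for core genes and 0.34 to 0.58 for cap genes, above all phenformin arrays (-0.09 to -0.07 and -0.20 to -0.10), and LA replicate 3 lies lowest at -0.80 and -0.83.

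The members were highest on CLA arrays, and this held for core and cap genes but not for regulators and chaperones. Averaged over the 14 core genes without Psma8, the deviation from each gene's mean over all arrays was -0.09, -0.07 and -0.08 on phenformin arrays, 0.34, 0.32 and 0.35 on CLA arrays, and -0.03, 0.07 and -0.80 on LA arrays. Averaged over the 17 cap genes it was -0.20, -0.14 and -0.10 on phenformin arrays, 0.34, 0.41 and 0.58 on CLA arrays, and -0.16, 0.07 and -0.83 on LA arrays. The CLA arrays did not overlap those of the other groups in either set, whereas phenformin arrays lay within the range of the LA arrays. The low end of that range was LA replicate 3 alone. Relative to LA replicates 1 and 2, every phenformin array lay lower for core genes, and phenformin replicate 1 lay lower for cap genes. The 11 regulators and chaperones had 0.02, 0.10 and 0.11 on phenformin arrays, -0.07, 0.09 and 0.13 on CLA arrays, and -0.04, 0.05 and -0.40 on LA arrays, and their groups overlapped. Over the 3330 genes with a mean level of 9 or more, the same deviation was 0.13, 0.14 and 0.13 on phenformin arrays, 0.04, 0.05 and 0.10 on CLA arrays, and -0.11, -0.01 and -0.46 on LA arrays. Among such bright genes as a whole, phenformin arrays were therefore the highest, which was not the order seen in core and cap genes. These averages describe the chosen genes and were not tested.

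Relative to LA, CLA raised 13 of the 45 members (28.9%) and lowered none at an adjusted p under 0.05, while among all genes 12.6% were called higher and 7.58% lower. Of the genes with a mean level of 9 or more, where all 13 lie, 24.3% were called higher. The 13 were the core genes Psma4 and Psmb4, the cap ATPases Psmc3, Psmc5 and Psmc6, the cap non-ATPases Psmd1, Psmd3, Psmd4, Psmd6, Psmd7 and Psmd14, the cap chaperone Psmd5 and the core chaperone Psmg2. Thus 9 of 17 cap genes were called, against 2 of 15 core genes and 2 of 11 regulators and chaperones. The difference between these shares was not tested, and the median log2 fold changes of core genes without Psma8 and of cap genes were 0.63 and 0.73. The median over all members was 0.61, against 0.05 over all genes and 0.21 over the genes at 9 or more. The arrays of CLA lay wholly above those of LA for 28 members, against 19.8% of all genes and 36.1% of the genes at 9 or more, and wholly below for 0 (13% of all genes). An unadjusted p under 0.05 was reached by 28 members, against 32.8% of all genes and 48.8% of the genes at 9 or more. Leaving out CLA replicate 2 gave 8 members called higher (9.23% of all genes), leaving out CLA replicate 1 gave 9 (9.04%) and leaving out LA replicate 2 gave 23 (11.4%). Psmb4, Psmd1, Psmd6, Psmd7, Psmd14 and Psmg2 each lost their call when at least 1 CLA array was left out. Without LA replicate 3 the test called 12 members higher, all of them among the 13, with 11.9% of all genes called higher, and the median was 0.34. Among the 13, the changes of Psmd6 (0.42) and Psmd14 (0.71) were then smaller by over 1.5 times, and 5 members that were not called turned sign. Quantile normalization called 11 higher (10.4% of all genes) and Psme1 lower (12.7%), with a median of 0.29. With the beta-actin difference as a covariate the median was 1.04 and only Psmc6 remained called higher, in a fit that called 3.17% of all genes higher. Every LA array had a larger beta-actin difference (0.98 to 1.71) than any treated array (0.43 to 0.66). That fit can therefore hardly separate the covariate from the LA group.

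Relative to LA, phenformin passed the test for few members. It raised 3 of 45 (6.67%), namely Psma4, Psmc6 and Psmg2, and lowered none, while 13.7% of all genes were called higher and 5.11% lower. Of the genes at 9 or more, 28% were called higher, so the members' share lay below both. The median was 0.11 over the members, 0.01 over all genes and 0.30 over the genes at 9 or more. Without LA replicate 3 the median was -0.06, Psmc6 and Psmg2 were called higher and Psma7 was called lower, so the direction of the median depended on that array. The fold changes of 15 of the 45 members turned sign in that fit, none of them among the 3 called. Leaving out LA replicate 2 gave 6 members called higher (12.4% of all genes), and Psma4 lost its call without phenformin replicate 1 or 2. In the fit without LA replicate 3, 12.7% of all genes were called higher and 6.61% lower. After quantile normalization 2 members were called higher (9.1% of all genes) and Psma7, Psmb6 and Psmg3 lower (10.9%). An unadjusted p under 0.05 was reached by 8 members, against 32.1% of all genes and 49.4% of the genes at 9 or more. CLA and phenformin were compared with the same 3 LA arrays, so the values of the 2 comparisons stand side by side below and are not independent.

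**Figure D2:**
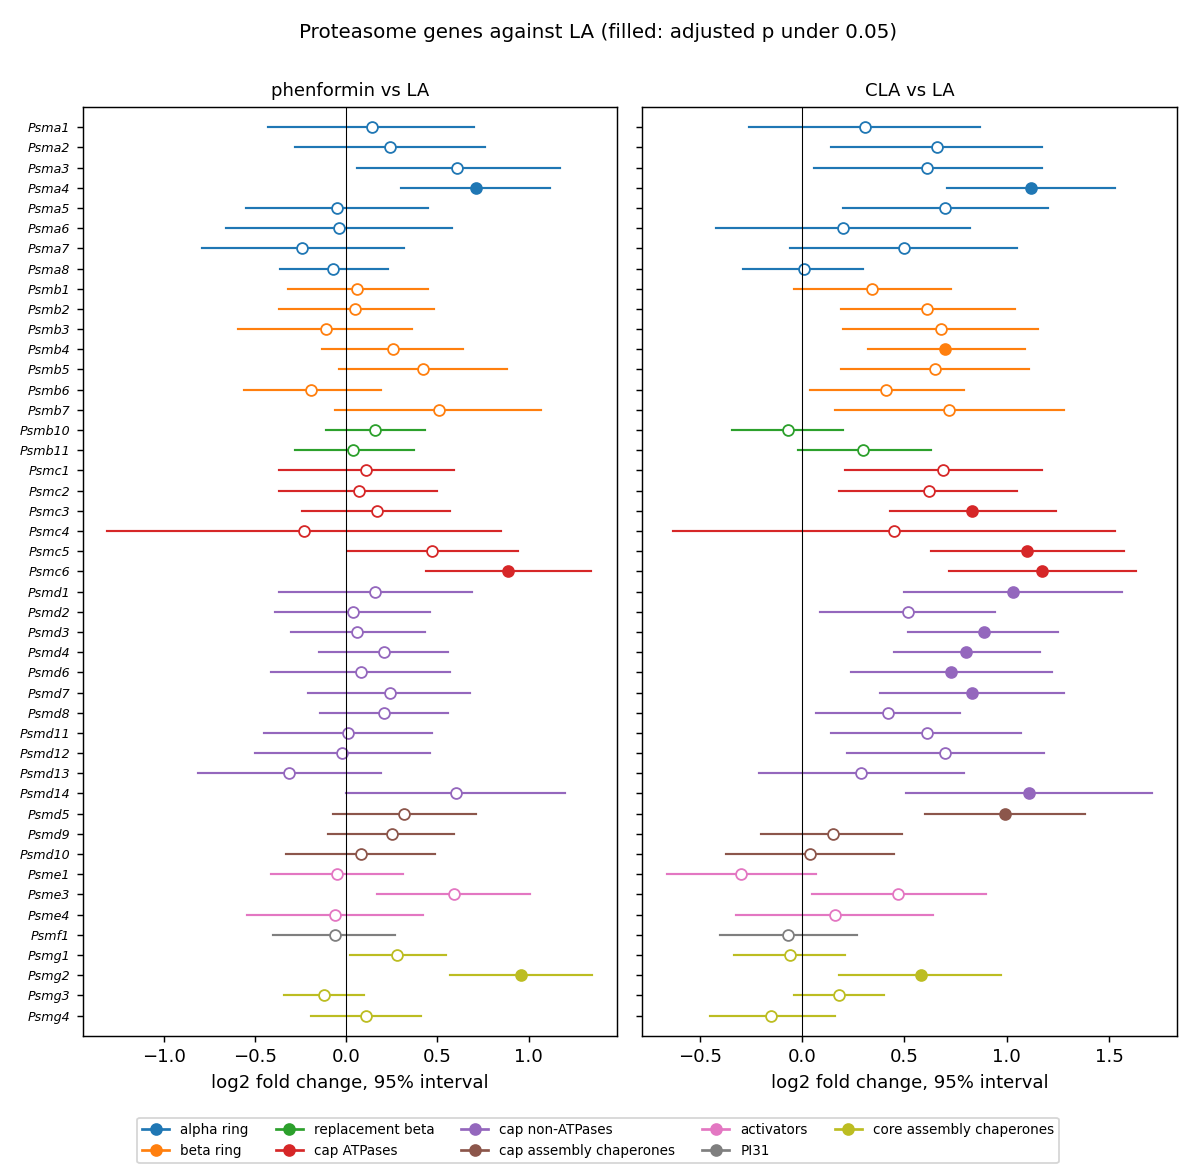
Log2 fold change of each of the 45 members relative to LA (phenformin left, CLA right) with its 95% interval from the fit of all 9 arrays; filled points have an adjusted p under 0.05 and colours mark the role. In phenformin 3 points are filled (Psma4, Psmc6 and Psmg2), in CLA 13, most of them among the cap ATPases and non-ATPases.

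Placed directly against each other, phenformin arrays lay below CLA arrays for most core and cap genes. The log2 fold change of phenformin over CLA was below 0 for 36 of 45 members. These included all 14 core genes without Psma8 and all 17 cap genes. The median was -0.42 over the members, against -0.03 over all genes and 0.09 over the genes at 9 or more. The phenformin arrays lay wholly below the CLA arrays for 29 members, among them 11 of 14 core genes without Psma8 and 15 of 17 cap genes, against 11.6% of all genes and 15.1% of the genes at 9 or more. They lay wholly above for 3 members, Psmb10, Psmg1 and Psmg2, against 15.6% of all genes. In the fit of all 9 arrays 1 member was called lower, Psmd3 (2.35% of all genes), and 0 were called higher (3.95% of all genes), with 22 members at an unadjusted p under 0.05, against 20.6% of all genes and 27.4% of the genes at 9 or more. That fit takes its spread from all 3 groups, LA replicate 3 included.

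Without the LA arrays in the fit, the same fold changes were called for 18 members, all lower, while 2.8% of all genes and 5.17% of the genes at 9 or more were called lower. The 18 comprised 5 core genes (Psma5, Psma7, Psmb3, Psmb4 and Psmb6), 12 cap genes and the chaperone Psmd5. Leaving out only LA replicate 3 called 20 members lower (3.48% of all genes), 6 core, 13 cap and Psmd5. Quantile normalization called 18 lower (3.52% of all genes). Leaving out phenformin replicate 1, phenformin replicate 2 or CLA replicate 1 instead left 0 calls in the fit with LA, where 1.35%, 1.26% and 1.31% of all genes were called lower. The number of calls thus depended on the fit, while the median lay between -0.45 and -0.36 in every alternative tried.

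**Figure D3:**
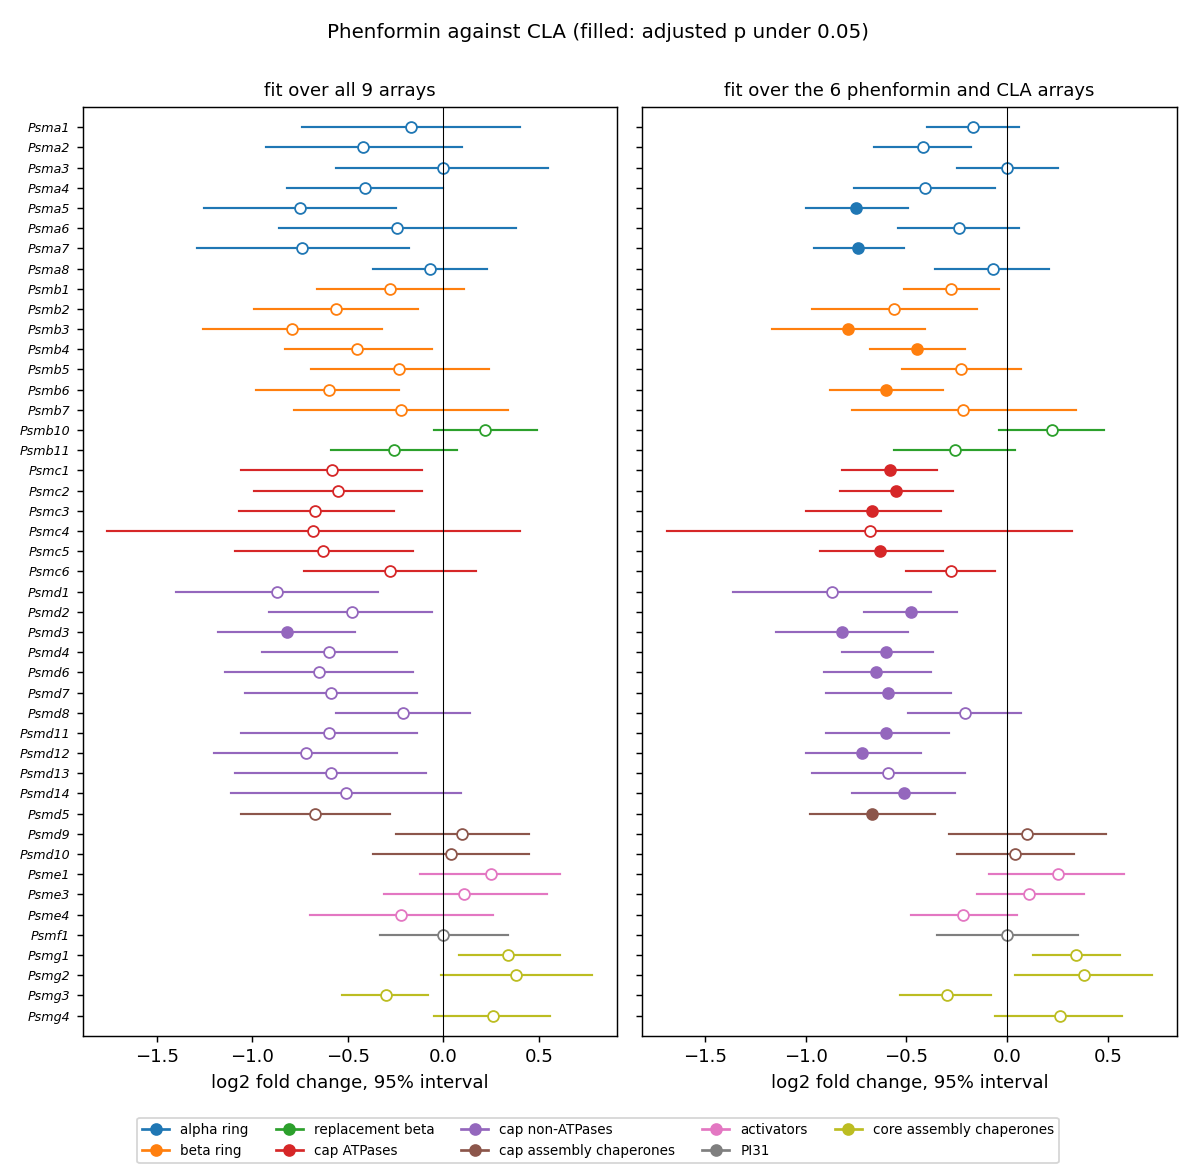
Log2 fold change of phenformin over CLA for the 45 members with 95% intervals, in the fit of all 9 arrays (left) and in the fit of the 6 phenformin and CLA arrays (right); filled points have an adjusted p under 0.05. The points are the same in both panels, 36 of 45 lie below 0, and 1 is filled on the left against 18 on the right, where the intervals of core and cap genes are narrower.

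Among the alpha ring genes, whose products form the gate through which substrates enter the core, Psma4 was the one that rose in both treatments. Psma4 had 12.12, 12.03 and 11.72 in phenformin arrays, 12.46, 12.50 and 12.15 in CLA arrays and 11.41, 11.48 and 10.85 in LA arrays. Every phenformin and CLA array lay above every LA array. The log2 fold change over LA was 0.71 ± 0.19 (adjusted p = 0.0251) in phenformin and 1.12 ± 0.19 (adjusted p = 0.00219) in CLA, and -0.41 ± 0.19 (adjusted p = 0.305) between phenformin and CLA. The rise in phenformin was not called without LA replicate 3 (0.51, adjusted p = 0.0531), whereas that in CLA was (0.92, adjusted p = 0.00339). Psma3 had 12.75, 12.89 and 12.64 in phenformin arrays, 12.73, 12.84 and 12.72 in CLA arrays and 12.47, 12.57 and 11.42 in LA arrays. Phenformin and CLA arrays overlapped each other and lay above LA, with changes over LA of 0.61 ± 0.25 (adjusted p = 0.136) in phenformin and 0.61 ± 0.25 (adjusted p = 0.134) in CLA, neither of which passed, and both were 0.25 without LA replicate 3. Psma5 had 11.46, 11.56 and 11.53 in phenformin arrays, 12.38, 12.12 and 12.30 in CLA arrays and 11.85, 11.92 and 10.93 in LA arrays. Psma7 had 10.73, 10.86 and 10.71 in phenformin arrays, 11.49, 11.48 and 11.54 in CLA arrays and 11.35, 11.40 and 10.27 in LA arrays. In both genes each phenformin array lay below each CLA array, by -0.75 ± 0.22 (adjusted p = 0.103) for Psma5 and -0.74 ± 0.25 (adjusted p = 0.15) for Psma7, and without LA arrays in the fit both passed (adjusted p = 0.0111 and 0.00816). Psma1, Psma2 and Psma6 were not called in any of the 3 comparisons, with changes over LA of 0.14, 0.24 and -0.04 in phenformin and 0.31, 0.66 and 0.20 in CLA.

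Of the beta ring genes, Psmb5, Psmb6 and Psmb7 encode the cutting subunits, with chymotrypsin-like, caspase-like and trypsin-like activity. Psmb5 had 11.40, 11.51 and 11.64 in phenformin arrays, 11.63, 11.66 and 11.95 in CLA arrays and 11.14, 11.54 and 10.60 in LA arrays. CLA arrays lay above all LA arrays and phenformin arrays overlapped both, with changes over LA of 0.42 ± 0.21 (adjusted p = 0.213) in phenformin and 0.65 ± 0.21 (adjusted p = 0.0587) in CLA. Psmb6 had 10.74, 10.86 and 11.06 in phenformin arrays, 11.43, 11.43 and 11.61 in CLA arrays and 11.23, 11.31 and 10.68 in LA arrays. Phenformin arrays were below every CLA array (-0.60 ± 0.17, adjusted p = 0.0794), a difference that passed without LA arrays in the fit (adjusted p = 0.0333), and they overlapped LA. CLA arrays of Psmb6 lay above all LA arrays, with a change of 0.41 ± 0.17 (adjusted p = 0.134) that did not pass. Psmb7 had 12.59, 11.94 and 12.86 in phenformin arrays, 12.59, 12.51 and 12.95 in CLA arrays and 12.05, 12.29 and 11.53 in LA arrays, and phenformin replicate 2 lay well below the other 2 phenformin arrays. Its change over LA was 0.51 ± 0.25 (adjusted p = 0.223) in phenformin and 0.72 ± 0.25 (adjusted p = 0.0817) in CLA. None of the 3 cutting subunits passed the test against LA in either treatment.

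The other beta genes give the ring its structure. Psmb4 had 12.00, 11.91 and 12.03 in phenformin arrays, 12.41, 12.36 and 12.51 in CLA arrays and 11.85, 12.03 and 11.28 in LA arrays. CLA lay above both other groups, with 0.70 ± 0.17 (adjusted p = 0.0185) over LA, while phenformin overlapped LA (0.26 ± 0.17, adjusted p = 0.379). Psmb2 had 11.01, 10.85 and 10.64 in phenformin arrays, 11.50, 11.63 and 11.03 in CLA arrays and 10.80, 11.05 and 10.47 in LA arrays. Psmb3 had 11.44, 11.52 and 11.19 in phenformin arrays, 12.44, 12.20 and 11.88 in CLA arrays and 11.74, 11.74 and 11.01 in LA arrays. Both fell just outside the threshold for CLA over LA (0.61 ± 0.19, adjusted p = 0.0551 for Psmb2 and 0.68 ± 0.21, adjusted p = 0.0558 for Psmb3), and phenformin arrays lay below every CLA array in Psmb3 (-0.79 ± 0.21, adjusted p = 0.0692) and in Psmb2 (-0.56 ± 0.19, adjusted p = 0.159). The other probe set of Psmb3 was called higher in CLA over LA (0.67 ± 0.17, adjusted p = 0.0242). Psmb1 was not called, with changes over LA of 0.06 in phenformin and 0.34 in CLA.

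Psmb10, the interferon-inducible subunit that can replace Psmb7, was not called in any comparison. It had 9.33, 9.38 and 9.49 in phenformin arrays, 9.12, 9.33 and 9.08 in CLA arrays and 9.23, 9.40 and 9.10 in LA arrays. Its change over LA was 0.16 ± 0.12 (adjusted p = 0.459) in phenformin and -0.07 ± 0.12 (adjusted p = 0.774) in CLA, with a 95% interval of -0.34 to 0.20 in CLA. Phenformin arrays lay at or above the CLA arrays (0.22 ± 0.12, adjusted p = 0.407). Psmb8 and Psmb9, the other inducible subunits, are not members and were not called over LA in CLA (-0.22 and -0.08) or in phenformin (-0.05 and 0.45). Of 5 measured interferon-induced antigen presentation genes, only Irf1 was called, higher in both treatments.

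The cap ATPases unfold substrates. Psmc6 had 11.46, 11.51 and 11.42 in phenformin arrays, 11.71, 11.73 and 11.80 in CLA arrays and 10.81, 10.91 and 10 in LA arrays. Every array of either treatment lay above every LA array, phenformin lay below CLA throughout, and the change over LA was 0.89 ± 0.20 (adjusted p = 0.0133) in phenformin and 1.17 ± 0.20 (adjusted p = 0.00288) in CLA. Both calls held without LA replicate 3, but neither held on the second brightest probe set of the gene. Psmc5 had 10.52, 10.56 and 10.70 in phenformin arrays, 10.99, 11.27 and 11.40 in CLA arrays and 10.08, 10.61 and 9.66 in LA arrays. Its CLA arrays lay above the others, by 1.10 ± 0.21 (adjusted p = 0.0051) over LA, and phenformin over LA did not pass (0.47 ± 0.21, adjusted p = 0.169). Psmc3 had 10.32, 10.48 and 10.65 in phenformin arrays, 11, 11.04 and 11.40 in CLA arrays and 10.33, 10.65 and 9.96 in LA arrays, and the pattern was the same, with 0.83 ± 0.18 (adjusted p = 0.0104) for CLA over LA and 0.17 ± 0.18 (adjusted p = 0.612) for phenformin over LA. Psmc1 and Psmc2 fell just outside the threshold for CLA over LA (0.69 ± 0.22, adjusted p = 0.053 for Psmc1 and 0.62 ± 0.20, adjusted p = 0.0582 for Psmc2).

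The sixth ATPase gene, Psmc4, depended on the probe set. On its brightest probe set the arrays of each group scattered widely (SD 0.59 in phenformin, 0.82 in CLA and 0.87 in LA), and CLA over LA was 0.45 ± 0.49 (adjusted p = 0.606). On its second probe set CLA over LA was 1.26 ± 0.21 (adjusted p = 0.00252) and phenformin over CLA was -1.04 ± 0.21 (adjusted p = 0.0224).

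**Figure D4:**
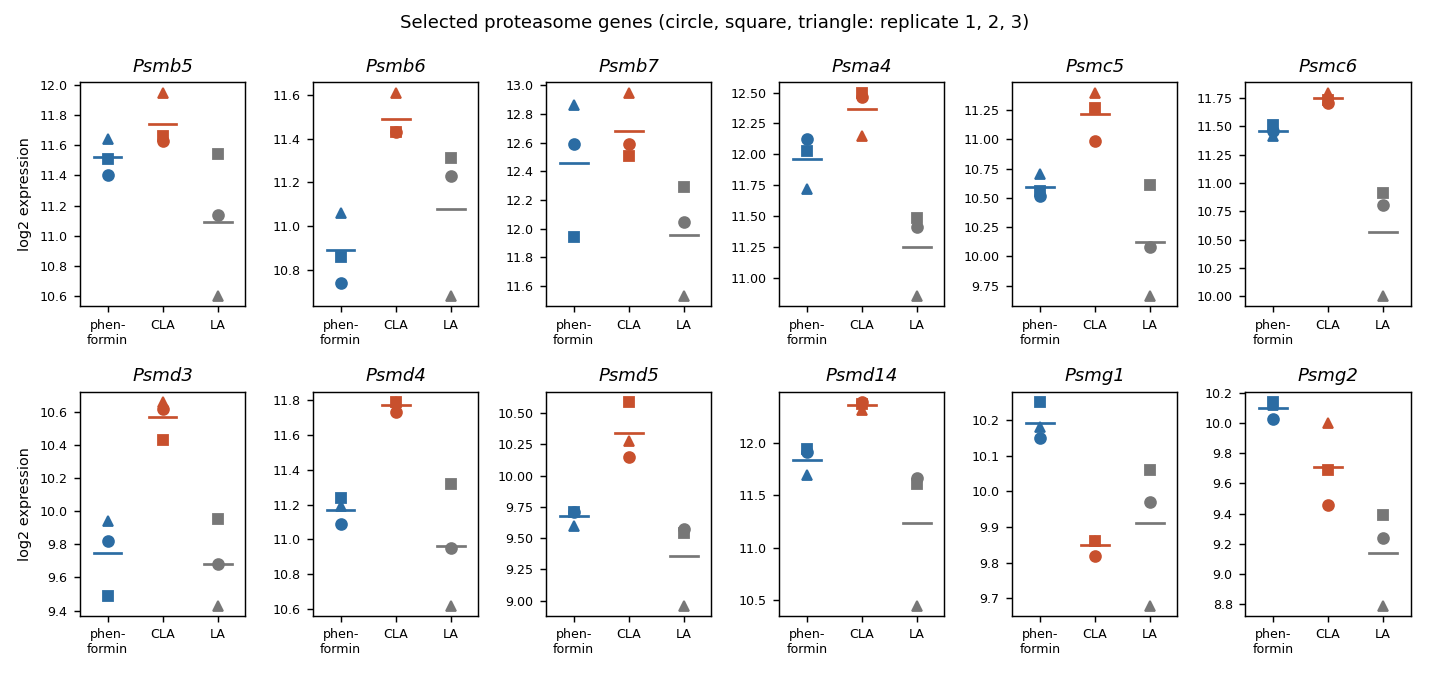
Log2 expression of 12 members on each array, with phenformin, CLA and LA from left to right in every panel; points are arrays (circle, square and triangle for replicates 1, 2 and 3) and lines are group means. CLA arrays lie above LA arrays in every panel except that of Psmg1, and Psmg1 and Psmg2 are highest in phenformin.

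Among the non-ATPase cap genes are the subunits that receive and remove ubiquitin. Psmd4, a receptor for ubiquitin chains, had 11.09, 11.24 and 11.19 in phenformin arrays, 11.73, 11.79 and 11.79 in CLA arrays and 10.95, 11.32 and 10.62 in LA arrays. CLA arrays lay above all others, with 0.80 ± 0.16 (adjusted p = 0.00629) over LA, and phenformin overlapped LA (0.21 ± 0.16, adjusted p = 0.453). Both other probe sets of Psmd4 were also called higher in CLA over LA. Psmd14, the enzyme that cuts ubiquitin chains off at the entrance, had 11.91, 11.94 and 11.69 in phenformin arrays, 12.39, 12.37 and 12.31 in CLA arrays and 11.67, 11.61 and 10.45 in LA arrays. Its change over LA was 0.60 ± 0.27 (adjusted p = 0.173) in phenformin, which did not pass, and 1.11 ± 0.27 (adjusted p = 0.0176) in CLA. LA replicate 3 was the low array, and without it the change was 0.20 in phenformin (adjusted p = 0.317) and 0.71 in CLA (adjusted p = 0.00278).

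Psmd3, a scaffold subunit of the lid, was the member called both for CLA over LA and for phenformin over CLA. It had 9.82, 9.49 and 9.94 in phenformin arrays, 10.62, 10.43 and 10.66 in CLA arrays and 9.68, 9.95 and 9.43 in LA arrays. CLA arrays lay above every other array, and the change was 0.89 ± 0.16 (adjusted p = 0.00397) for CLA over LA, -0.82 ± 0.16 (adjusted p = 0.0189) for phenformin over CLA and 0.06 ± 0.16 (adjusted p = 0.852) for phenformin over LA. Psmd1, a large scaffold subunit of the base, had 11.11, 10.81 and 10.39 in phenformin arrays, 11.66, 11.92 and 11.34 in CLA arrays and 10.71, 10.95 and 10.16 in LA arrays. Its change was 1.03 ± 0.24 (adjusted p = 0.0139) for CLA over LA and -0.87 ± 0.24 (adjusted p = 0.0741) for phenformin over CLA, and its CLA arrays also lay above all others. Psmd6 and Psmd7, further lid subunits, were called for CLA over LA (0.73 ± 0.22, adjusted p = 0.0479 for Psmd6 and 0.83 ± 0.20, adjusted p = 0.0184 for Psmd7). The Psmd6 call held in 6 of 20 alternatives, and on its second probe set the change was -0.17.

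The remaining cap genes were not called against LA in either treatment. Psmd12 had 10.04, 10.29 and 10.11 in phenformin arrays, 10.73, 10.84 and 11.02 in CLA arrays and 10.38, 10.53 and 9.59 in LA arrays, with phenformin below CLA throughout (-0.72 ± 0.22, adjusted p = 0.104). Psmd13 had 8.80, 8.75 and 9.18 in phenformin arrays, 9.33, 9.42 and 9.76 in CLA arrays and 9.32, 9.62 and 8.70 in LA arrays. Psmd8 had 10.95, 10.78 and 11.11 in phenformin arrays, 11.06, 11.24 and 11.18 in CLA arrays and 10.73, 11.05 and 10.44 in LA arrays. The change of phenformin over LA was -0.31 ± 0.23 (adjusted p = 0.429) in Psmd13 and 0.21 ± 0.16 (adjusted p = 0.446) in Psmd8, both with overlapping arrays. Psmd2, a large base scaffold, and Psmd11, a lid subunit, did not pass for CLA over LA, at 0.52 ± 0.19 (adjusted p = 0.0978) and 0.61 ± 0.21 (adjusted p = 0.0774). Psmd11 has 8 probe sets here, and 3 of the dimmer ones were called higher in CLA over LA with changes of 0.94, 1.15 and 1.17.

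Chaperones that help to build the cap base were measured by 3 genes. Psmd5 rose in CLA by 0.99 ± 0.18 (adjusted p = 0.00338), with group means of 9.68 ± 0.07 in phenformin, 10.34 ± 0.23 in CLA and 9.36 ± 0.34 in LA, and all CLA arrays lay above all others. Neither phenformin over CLA (-0.67 ± 0.18, adjusted p = 0.0633) nor phenformin over LA (0.32 ± 0.18, adjusted p = 0.274) passed. Psmd9 and Psmd10 were not called in any comparison, with CLA over LA at 0.15 and 0.04 and phenformin over LA at 0.25 and 0.08.

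None of the activators, which open the core without the standard cap, was called in the fit of all 9 arrays. Psme1, the interferon-inducible activator, had 10.41, 10.41 and 10.66 in phenformin arrays, 10.06, 10.20 and 10.49 in CLA arrays and 10.51, 10.82 and 10.30 in LA arrays. Its log2 fold change over LA was -0.05 ± 0.16 (adjusted p = 0.886) in phenformin and -0.30 ± 0.16 (adjusted p = 0.27) in CLA, and it was called lower in CLA after quantile normalization. Psme3, a nuclear activator, had 9.18, 9.09 and 9.25 in phenformin arrays, 8.90, 9.20 and 9.08 in CLA arrays and 8.69, 8.95 and 8.11 in LA arrays. Phenformin lay above LA throughout (0.59 ± 0.19, adjusted p = 0.0604), and CLA overlapped LA (0.47 ± 0.19, adjusted p = 0.126). Psme4, a large single-chain activator, had 10.28, 10.52 and 10.26 in phenformin arrays, 10.61, 10.48 and 10.62 in CLA arrays and 10.74, 10.67 and 9.82 in LA arrays, with overlapping groups and changes over LA of -0.06 ± 0.22 (adjusted p = 0.902) in phenformin and 0.16 ± 0.22 (adjusted p = 0.691) in CLA. Psmf1, which encodes the regulator PI31, had 8.55, 8.66 and 8.91 in phenformin arrays, 8.52, 8.65 and 8.94 in CLA arrays and 8.60, 8.93 and 8.78 in LA arrays, with overlapping groups and log2 fold changes over LA of -0.06 ± 0.15 (adjusted p = 0.842) in phenformin and -0.07 ± 0.15 (adjusted p = 0.822) in CLA. Of its dimmer probe sets, the one at a mean level of 6.85 was called higher in CLA over LA (0.83 ± 0.25, adjusted p = 0.0481). The others were not called.

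The chaperones that assemble the core's alpha ring work in pairs, Psmg1 with Psmg2 and Psmg3 with Psmg4. Of these only Psmg2 was called. Psmg2 had 10.03, 10.14 and 10.12 in phenformin arrays, 9.46, 9.69 and 10 in CLA arrays and 9.24, 9.39 and 8.79 in LA arrays. Phenformin lay above CLA and CLA above LA throughout, and the change over LA was 0.96 ± 0.18 (adjusted p = 0.00428) in phenformin and 0.58 ± 0.18 (adjusted p = 0.0497) in CLA. The call in phenformin held in 17 of 20 alternatives and that in CLA in 3 of 20. Neither held on the second brightest probe set, with changes of 0.34 (adjusted p = 0.276) in phenformin and -0.10 (adjusted p = 0.796) in CLA. Both were also lost with the mean of all probe sets and with the beta-actin covariate. Psmg1 had 10.15, 10.25 and 10.18 in phenformin arrays, 9.82, 9.86 and 9.86 in CLA arrays and 9.97, 10.06 and 9.68 in LA arrays. Its phenformin arrays lay above all others, with 0.28 ± 0.12 (adjusted p = 0.148) over LA and 0.34 ± 0.12 (adjusted p = 0.164) over CLA, neither of which passed. Psmg3 had 8.68, 8.70 and 8.76 in phenformin arrays, 8.97, 9.09 and 9 in CLA arrays and 8.86, 8.88 and 8.78 in LA arrays. Psmg4 had 8.49, 8.49 and 8.83 in phenformin arrays, 8.21, 8.33 and 8.49 in CLA arrays and 8.60, 8.52 and 8.34 in LA arrays. Phenformin lay below both other groups in Psmg3 (-0.12 ± 0.10, adjusted p = 0.481 over LA and -0.30 ± 0.10, adjusted p = 0.134 over CLA), and the groups overlapped in Psmg4 (0.11 ± 0.14, adjusted p = 0.667 in phenformin and -0.15 ± 0.14, adjusted p = 0.544 in CLA over LA).

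Of the 52 further probe sets of members, 8 were called higher and 2 lower in CLA over LA, 1 higher and 3 lower in phenformin over LA, and 0 higher and 5 lower in phenformin over CLA. Among the 16752 further probe sets of all genes, 11.2% were called higher and 5.9% lower in CLA over LA, 13.4% and 4.96% in phenformin over LA, and 2.77% and 1.62% in phenformin over CLA. The 5 last ones belong to Psma5, Psmc4 and Psmd11. One of Psmd13, with a mean level of 4.99, had -1.29 in phenformin and -1.54 in CLA relative to LA and passed in both, against the brightest probe set of that gene, which was not called.

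The regions before the transcription start were read for the cores of the antioxidant response element, the site that Nfe2l1 and Nfe2l2 are known to bind. Shown are the 250 bases before the RefSeq start of the 2 subunits that rose in both treatments and of 2 cutting subunits, in build GRCm38.p6, each written along the gene's strand with the motif in capitals. In Psma4 (chr9:54950609-54950858, plus strand) TGAGNNNGC lies 127 to 119 bases before the start. In Psmc6 (chr14:45329574-45329823, plus strand) TGAGNNNGC lies 241 to 233 bases and, on the opposite strand, TGACNNNGC 227 to 219 bases before it. Psmb5 (chr14:54617996-54618245, minus strand) and Psmb6 (chr11:70525107-70525356, plus strand) hold TGACNNNGC 47 to 39 and 9 to 1 bases before it.
Psma4: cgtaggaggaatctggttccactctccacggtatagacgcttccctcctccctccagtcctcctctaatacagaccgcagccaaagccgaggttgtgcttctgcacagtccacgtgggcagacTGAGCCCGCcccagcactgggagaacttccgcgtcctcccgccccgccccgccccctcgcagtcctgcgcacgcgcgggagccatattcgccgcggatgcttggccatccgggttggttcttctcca
Psmc6: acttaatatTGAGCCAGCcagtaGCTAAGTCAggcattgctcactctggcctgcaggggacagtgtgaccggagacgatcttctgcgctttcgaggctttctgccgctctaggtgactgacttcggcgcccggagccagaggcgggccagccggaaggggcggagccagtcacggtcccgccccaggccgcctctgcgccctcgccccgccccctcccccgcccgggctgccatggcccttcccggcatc
Psmb5: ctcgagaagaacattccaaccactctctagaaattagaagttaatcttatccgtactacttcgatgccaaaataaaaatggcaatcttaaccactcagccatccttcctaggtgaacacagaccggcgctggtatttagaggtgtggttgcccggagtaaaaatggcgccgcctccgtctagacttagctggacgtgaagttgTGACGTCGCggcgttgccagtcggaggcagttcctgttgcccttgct
Psmb6: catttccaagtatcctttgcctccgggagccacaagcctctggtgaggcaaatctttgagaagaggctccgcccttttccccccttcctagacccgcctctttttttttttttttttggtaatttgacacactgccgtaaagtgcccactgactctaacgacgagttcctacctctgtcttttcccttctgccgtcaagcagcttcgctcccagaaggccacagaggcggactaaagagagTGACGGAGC
These 4 were chosen after the motifs had been found in them. RefSeq windows were matched for 37 members (39 windows). On either strand, TGACNNNGC was found in 5 of 39 (12.8%, against 10.2% of all 32851 windows) and TGAGNNNGC in 10 of 39 (25.6% against 14.4%). One or the other was in 13 of 39 (33.3% against 23%), and CCAAT in 13 of 39 (33.3% against 33.8%). A match describes letters and not binding. The 9 members with TGAGNNNGC were Psma4, Psma6, Psmb3, Psmc2, Psmc6, Psmd1, Psmd5, Psmd12 and Psmg4. Of these, Psma4, Psmc6, Psmd1 and Psmd5 were called higher in CLA over LA, and the others were not. The 5 members with TGACNNNGC were Psmb5, Psmb6, Psmc6, Psmd9 and Psmd12, of which only Psmc6 was called higher in that comparison. Of all 45 members 28.9% were called higher there, against 12.6% of all genes. A link between motif and response was not tested.

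Other genes of the pathway came from a list of factors that control, build or deliver substrates to the proteasome, of which 23 were measured. Relative to LA, phenformin raised 7 (30.4%) and lowered 0 (median 0.31), where 13.7% of all genes and 28% of the genes at 9 or more were called higher. CLA raised 12 (52.2%) and lowered 0 (median 0.67), where those shares were 12.6% and 24.3%. Phenformin over CLA was called higher for Nfe2l1 and lower for Zfand2a (median -0.17), against 3.95% of all genes called higher and 2.35% called lower. Without LA replicate 3 the counts were 7 higher and 2 lower in phenformin (12.7% and 6.61% of all genes) and 11 higher and 3 lower in CLA relative to LA (11.9% and 9.48%), and 1 higher and 7 lower in phenformin over CLA (5.96% and 3.48%). With the beta-actin difference as a covariate, 4 were called higher in phenformin (4.22% of all genes) and 7 in CLA (3.17%) relative to LA, and 0 lower. The calls of Nfe2l1, Sem1 and Rad23b in phenformin over LA were among those lost with that covariate, which the fit can hardly separate from the LA group.

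The 2 transcription factors differed in their pattern across treatments. Nfe2l1, which raises proteasome genes when activity runs short, had 10.96, 10.89 and 11.27 in phenformin arrays, 10.45, 10.32 and 10.45 in CLA arrays and 10.07, 10.30 and 10.05 in LA arrays. Phenformin lay above both other groups and was called against each, with 0.90 ± 0.13 (adjusted p = 0.00115) over LA and 0.64 ± 0.13 (adjusted p = 0.0232) over CLA, while CLA over LA did not pass (0.27 ± 0.13, adjusted p = 0.217). Nfe2l1 mRNA was highest in phenformin, and the core and cap genes were highest in CLA. The arrays do not measure the activity of Nfe2l1, and a link between the 2 patterns was not tested. Nfe2l2, the factor of the oxidative stress response, had 10.67, 10.72 and 10.66 in phenformin arrays, 10.96, 10.88 and 10.85 in CLA arrays and 9.55, 9.41 and 9.12 in LA arrays. Both treatments lay above LA without overlap, by 1.32 ± 0.12 (adjusted p = 9.1e-05) in phenformin and 1.53 ± 0.12 (adjusted p = 2.58e-05) in CLA, and phenformin over CLA did not pass (-0.21 ± 0.12, adjusted p = 0.446).

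Among the pathway genes with the smallest adjusted p, Sqstm1, a ubiquitin receptor for autophagy, had 12.54, 12.54 and 12.91 in phenformin arrays, 13.24, 13.27 and 13.40 in CLA arrays and 11.13, 11.41 and 10.82 in LA arrays. It rose over LA by 1.55 ± 0.16 (adjusted p = 0.000172) in phenformin and 2.18 ± 0.16 (adjusted p = 1.53e-05) in CLA. Zfand2a, an arsenite-inducible protein that associates with proteasomes, had 8.81, 9.30 and 9.37 in phenformin arrays, 10.99, 11 and 11.39 in CLA arrays and 9.28, 9.56 and 8.85 in LA arrays. It rose in CLA only among the tests against LA (1.90 ± 0.21, adjusted p = 0.000187 in CLA and -0.07 ± 0.21, adjusted p = 0.881 in phenformin), and the treatments differed from each other by -1.97 ± 0.21 (adjusted p = 0.000753). Rad23b, which shuttles ubiquitinated proteins to the cap, had 10.34, 10.24 and 10.60 in phenformin arrays, 10.98, 10.94 and 11.08 in CLA arrays and 9.77, 9.91 and 9.25 in LA arrays, and rose by 0.75 ± 0.17 (adjusted p = 0.0137) in phenformin and 1.36 ± 0.17 (adjusted p = 0.000443) in CLA. Both shuttle genes Rad23b and Ubqln2 were lower in phenformin than in CLA on every array, by -0.61 ± 0.17 (adjusted p = 0.0833) and -0.72 ± 0.18 (adjusted p = 0.0512), neither of which passed in the fit of all 9 arrays. Both were called lower without the LA arrays in the fit (adjusted p = 0.0343 for Rad23b and 0.0224 for Ubqln2), without LA replicate 3 (adjusted p = 0.0168 and 0.0112) and after quantile normalization (adjusted p = 0.0164 and 0.0073).

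Akirin2, which carries proteasomes into the nucleus in human cells, had 10.99, 11.02 and 10.99 in phenformin arrays, 10.81, 10.90 and 10.85 in CLA arrays and 10.14, 10.09 and 9.74 in LA arrays. It rose by 1.01 ± 0.12 (adjusted p = 0.000405) in phenformin and 0.87 ± 0.12 (adjusted p = 0.000872) in CLA relative to LA. Zfand5, which stimulates proteasome activity, rose by 1.08 ± 0.22 (adjusted p = 0.00739) in phenformin and 1.25 ± 0.22 (adjusted p = 0.00316) in CLA. The next 6 genes were chosen for their roles after their values were seen. The unfolding enzyme Vcp and its partners Ufd1 and Nploc4, which pull ubiquitinated proteins out of complexes, rose in CLA (0.72, 0.67 and 0.81) and did not pass in phenformin (0.15, 0.54 and 0.15). Usp14, a ubiquitin-removing enzyme on the cap, rose in CLA by 0.98 ± 0.23 (adjusted p = 0.0145) and had 0.38 ± 0.23 (adjusted p = 0.324) in phenformin, which did not pass. Sem1, a small cap subunit outside the naming rule of the members, rose in phenformin by 0.59 ± 0.17 (adjusted p = 0.0383), and its change in CLA did not pass (0.38 ± 0.17, adjusted p = 0.169). Pomp, the maturation factor that guides the last steps of building the core, was called in neither treatment (-0.07 ± 0.19, adjusted p = 0.867 in phenformin and 0.19 ± 0.19, adjusted p = 0.572 in CLA), but without LA replicate 3 it was called lower in phenformin (-0.34, adjusted p = 0.0469). The call of Ufd1 in CLA was lost without that array (0.48, adjusted p = 0.0602).

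**Figure D5:**
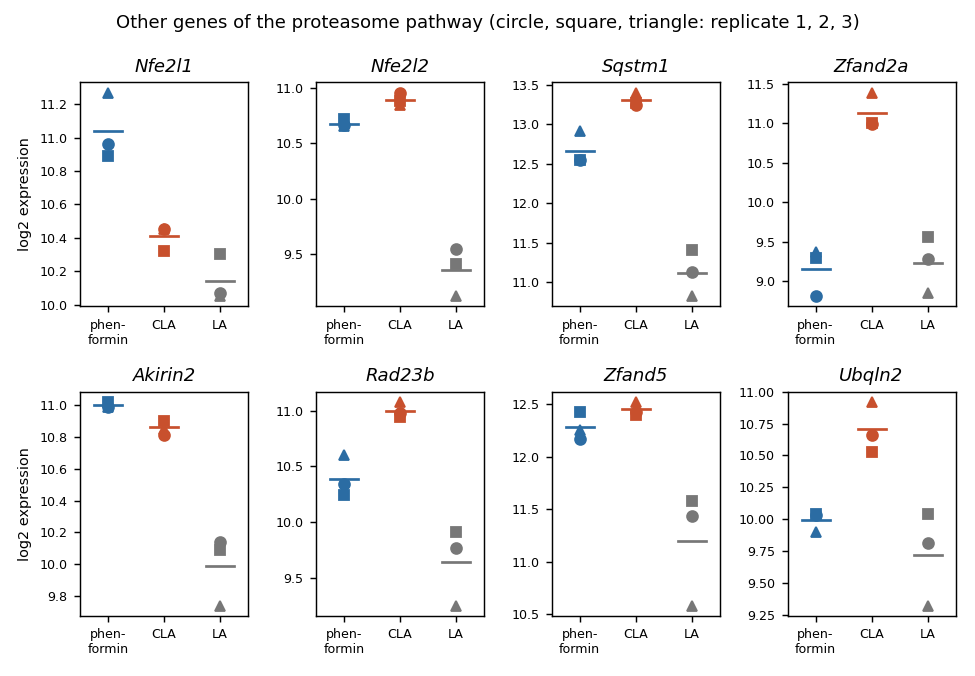
Log2 expression of 8 other pathway genes on each array, with phenformin, CLA and LA from left to right; points are arrays (circle, square and triangle for replicates 1, 2 and 3) and lines are group means. Nfe2l1 is highest in phenformin (10.89 to 11.27), Zfand2a is high in CLA alone (10.99 to 11.39), and Nfe2l2, Sqstm1, Akirin2 and Zfand5 lie above LA in both treatments.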

How the data were processed

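RNA of 9 cultures of 3T3-L1 adipocytes was measured on 1 Affymetrix array each, in 3 groups of 3. Per the submitters' processing notes the authors ran RMA under R 2.9.0, which corrects background, normalizes arrays to each other and summarises probes. The deposited log2 values, 1 per probe set, were used without further normalization except in alternatives. The authors' deposited comparison tables, with log2 fold changes, p-values and a score per probe set (moderated t and log odds) per the file headers, served as a check: a refit with controls included called the same 7445 (CLA vs LA), 7405 (phenformin vs LA) and 2038 (phenformin vs CLA) probe sets. No version of limma or RMA is stated for them in the sources used here.

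Each comparison was a contrast in 1 linear model of the 9 arrays (limma 3.58.1 with eBayes, under R 4.3.3), tested on both sides. Adjusted p-values (Benjamini-Hochberg) span the 45037 probe sets that remain of 45101 without 64 controls, and the threshold was 0.05. A p-value sets a difference of means against the spread between these cultures, pooled over the groups fitted and moderated across probe sets. An exact permutation test of 3 against 3 cannot go below 0.1. The brightest probe set with a single symbol stood for each gene. A probe set at or under the 95th percentile of 27 bacterial control probe sets on all arrays of a group was taken as not above background. Values in every array are given for the cutting subunits, Psmb10, activators, PI31 and core chaperones, and for the 6 core and 6 cap genes with the smallest adjusted p per comparison. Of other pathway genes, Nfe2l1, Nfe2l2 and up to 6 per comparison with the smallest adjusted p are named, with exceptions stated. The members and gene lists were chosen with earlier results of these data known. On simulated data of the same size, the test recovered 64% of 2-fold and 97% of 4-fold changes for CLA against LA along with 11 false calls, and 64%, 98% and 8 for phenformin against CLA. The simulation drew independent normal noise per probe set, with the same SD in all groups, and changed 200 probe sets in CLA. It held no array like LA replicate 3 and far fewer changes than were called here, so these figures do not carry over to the real arrays. The number of arrays limits the precision. Tables and plots used Python 3.11.15, pandas 2.3.3 and matplotlib 3.10.9.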

Additional observations from a re-analysis of the deposited data

How the results depend on the processing

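The settings varied were a replicate block, 1 array removed at a time, a separate fit per pair of groups, centring on medians, quantile normalization, removal of dim probe sets (23938 kept), eBayes with an intensity trend and robust variance, weights per array, the beta-actin difference as a covariate and averaging a gene's probe sets. Quantile normalization without LA replicate 3 and the second brightest probe set were added after the data were seen. Where not stated, the cause of a change was not tested.

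For CLA over LA (13 members higher, 0 lower, median 0.61), leaving out 1 array gave 8 to 23 higher and medians of 0.34 to 0.75. Leaving out dim probe sets gave 20 higher with fewer probe sets tested, and the beta-actin covariate 1 higher with a median of 1.04. Quantile normalization gave 1 lower and a median of 0.29, the same without LA replicate 3 gave 1 and 0.23, and array weights 1 and 0.34. Of the genes tested, 20.2% were called either way in the main fit and 13.5% to 21.4% with 1 array left out. The share was 31.7% without dim probe sets, 4% with the covariate and 28.8% with array weights. Quantile normalization gave 23.1%, or 22.9% without LA replicate 3. For phenformin over LA (3 higher, 0 lower, median 0.11), leaving out 1 array gave 2 to 6 higher, 0 to 1 lower and medians of -0.06 to 0.23. Quantile normalization gave 3 lower and a median of -0.13, without LA replicate 3 as well 9 lower and -0.22, array weights 2 lower, and the covariate 0 higher and 0.50. The mean of probe sets and the second brightest probe set each gave 1 higher and 1 lower. Here 18.8% of the genes tested were called either way in the main fit. Leaving out 1 array gave 12.8% to 19.3%, the covariate 4.88%, array weights 27.2% and the mean of probe sets 19.9%. Quantile normalization gave 20%, or 20.2% without LA replicate 3. The second brightest probe set was taken for 16 members only, so no comparison has a share of its own for it.

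For phenformin over CLA (0 higher, 1 lower), the counts lower were 3 with the replicate block, 0 to 20 with 1 array left out, 18 in the fit of 2 groups, 18 and 22 with quantile normalization with and without LA replicate 3, 4 without dim probe sets, 15 with array weights (2 higher), 2 with the covariate, 10 with the mean of probe sets and 3 with the second brightest. Of the genes tested, 6.3% were called either way in the main fit and 5.29% with the block. With 1 array left out the share was 2.54% to 9.44%, and in the fit of 2 groups 7.18%. Quantile normalization gave 6.98%, or 9.38% without LA replicate 3. Leaving out dim probe sets gave 10.1%, array weights 13.3%, the covariate 6.75% and the mean of probe sets 8.31%. Without LA replicate 3, the fold change over LA turned sign for 15 of 45 members in phenformin and for 5 in CLA, and with quantile normalization as well for 21 and 7. Most of these were called in neither fit. Reversals in which either value was called were those of Psma1 (-0.40) and Psmd2 (-0.36) in phenformin over LA under quantile normalization without LA replicate 3, and on the second brightest probe set those of Psmd6 (-0.17) and Psmg2 (-0.10) in CLA over LA and Psma1 (-0.66) in phenformin over LA.

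In their deviations, same-numbered arrays correlated at -0.285 to -0.05 between LA and either treatment. Between CLA and phenformin they correlated at 0.29, 0.092 and 0.582 for replicates 1, 2 and 3, against -0.532 to 0.386 for unlike numbers. As this was not alike across groups, the numbers were not taken to pair the samples. Whether CLA and phenformin replicates shared a batch is not stated. With the replicate block 14 members were higher in CLA over LA, 3 in phenformin over LA, and 3 lower in phenformin over CLA. Of all genes, 20%, 18.4% and 5.29% were called either way in these comparisons, in the same order.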
